A study of Mus musculus with 12 samples.

Results

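The 6 genes described here, Lbp, Gprasp1, Ksr2, Parp3, Lman2l and Slc14a1, were chosen by their measured differences among circadian times in these same libraries, with genes of the chaperone families set aside. They are 6 of 16396 genes tested and of 50600 gene identifiers in the files. The data come from polyA RNA of CD8+ T cells, the cytotoxic lymphocytes, taken from lymph nodes of male C57BL/6J mice aged 8 weeks. The mice were held in constant darkness, so that daily rhythms ran on the internal clock. On 2 days in turn, samples were taken every 4 h from circadian time 2 h (CT2) to 22 h (CT22), which gave 2 libraries per time and 12 in all. CT0 to CT12 is by convention the subjective day, and CT14 falls early in the subjective night, when mice are active. The labels give no number of mice per sample and no genotype other than the strain, and the p-values below measure only the spread between these samples, which may be technical.

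The 6 genes act in different parts of the cell. Lbp encodes a secreted protein that binds bacterial lipopolysaccharide (LPS) and hands it to CD14 and the receptor TLR4, and the liver is its best known source. Gprasp1 encodes a protein that binds G protein-coupled receptors and sorts them to lysosomes. Ksr2 encodes a scaffold of the kinase cascade from RAF through MEK to ERK. Parp3 encodes a nuclear ADP-ribosyltransferase that takes part in the joining of DNA breaks. Lman2l encodes an L-type lectin that helps carry glycoproteins out of the endoplasmic reticulum. Slc14a1 encodes the urea transporter UT-B, known from red blood cells and blood vessels of the kidney. Genes under the clock mostly follow a 24 h wave, and a sharp rise at 1 time or a pattern that repeats every 12 h is a different shape.

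In GENCODE M21, on build GRCm38, Lbp lies at chr2:158306493-158332852 on the plus strand, Gprasp1 at chrX:135742733-135803474 on the plus strand and Ksr2 at chr5:117414000-117775003 on the plus strand. Parp3 lies at chr9:106470322-106476949 and Lman2l at chr1:36419871-36445271, both on the minus strand. The table of RefSeq promoters (GRCm38.p6), which runs from 250 bases before to 50 after a gene's start, held 4 of the 6 genes. The promoters of Lman2l, at chr1:36445222-36445521 on the minus strand, and Gprasp1, at chrX:135742442-135742741 on the plus strand, are shown because the first belongs to the gene whose time course lay closest to heat shock genes and the second also covers the annotated start of Armcx5, whose CT14 values were not raised. Capitals mark CCAAT and GGGCGG on either strand.
Lman2l: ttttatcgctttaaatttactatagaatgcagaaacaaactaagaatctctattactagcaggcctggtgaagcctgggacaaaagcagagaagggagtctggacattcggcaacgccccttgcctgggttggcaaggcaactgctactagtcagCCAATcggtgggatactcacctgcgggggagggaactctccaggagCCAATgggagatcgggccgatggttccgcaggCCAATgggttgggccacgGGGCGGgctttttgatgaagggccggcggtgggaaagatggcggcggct
Gprasp1: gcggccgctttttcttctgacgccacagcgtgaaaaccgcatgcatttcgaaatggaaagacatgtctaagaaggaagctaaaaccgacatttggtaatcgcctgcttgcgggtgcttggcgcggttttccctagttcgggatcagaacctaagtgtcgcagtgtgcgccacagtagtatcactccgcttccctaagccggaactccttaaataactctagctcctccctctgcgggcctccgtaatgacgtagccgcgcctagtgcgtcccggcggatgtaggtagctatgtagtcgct
The Lman2l promoter held CCAAT 3 times, at positions -95, -49 and -17 from the start, and GGGCGG once. Of 32851 promoters of the same length, 37.4% held CCAAT and 35.7% held GGGCGG on either strand. Neither was found in the Gprasp1 promoter. The paired units of the heat shock element, GAANNTTC (in 7.86% of promoters) and TTCNNGAA (8.52%), were found in 0 of the 4 promoters. The clock-related E-box CACGTG (7.15%), the D-box TTATGTAA (0.938%) and the cAMP response element TGACGTCA (1.79%) were likewise found in 0 of the 4. The GC content of the 4 windows was 55.3% for Lman2l, 75.3% for Ksr2, 57.7% for Parp3 and 54% for Gprasp1, against a median of 52.7% over all promoters.

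Sequencing depth was 24689964 to 33497078 counts on genes per library (median 27087286), with 32205484 and 33497078 in the CT14 libraries, more than in any other. The unit CPM corrects each count for the size of its library. The labelled cell type was borne out by its markers, with 6 CD8 T cell genes (Cd8a, Cd8b1, Cd3e, Cd3d, Cd3g and Trac) summing to 4309 to 5394 CPM. Marker sums of other cell types were lower, though such sums do not measure numbers of cells. Whether the T cells themselves express some of these genes was not tested. The dendritic cell list includes Ccr7 and the endothelial list Pecam1, and the part of each gene in its sum is not given. Over all libraries the sums were 121 to 245 CPM for 6 B cell genes, 277 to 1192 CPM for 9 monocyte and macrophage genes, 477 to 566 CPM for 6 dendritic cell genes, 139 to 184 CPM for 6 endothelial genes and 10.1 to 86.9 CPM for 5 neutrophil genes, of which Ly6g was at or under 3 counts per library on average. Of 53 tested marker genes of 11 lists, 0 passed the test of times, the CT14 test or the 12 h test by edgeR. At an unadjusted p under 0.05, 15 passed the test of times (12.7% of all tested genes did), and 3 did by DESeq2 after adjustment. Fewer cells of a type and less RNA per cell cannot be told apart in bulk samples.

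Across the 12 libraries 5 of the 6 genes set CT14 apart from every other time, 4 upward and 1 downward. The exception was Ksr2, which was low at both CT2 and CT14. The choice of the genes on these libraries favours such a separation, and its share over all genes is not given here, so it is a description. In the fit across all genes 42 genes (0.256% of those tested) differed among the 6 times at an adjusted p under 0.05 by edgeR's quasi-likelihood test. All 6 genes were among them, at ranks 5 to 24 by p-value. This is what chose them and is not a result. Just inside that threshold lay Tra2a and Gstp3, with CT14 means of 156 and 25.03 CPM against 132 and 36.8 CPM at the other times. Just outside lay Cct3 and Mat2a, with 276 and 275 CPM at CT14 against 216 and 218 CPM elsewhere.

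Lbp had the largest change at CT14 among the 6. Its level in CPM on day 1 and day 2 was 4.53 and 4.84 at CT2, 2.74 and 2.88 at CT6, 2.76 and 2.54 at CT10, 8.12 and 9.21 at CT14, 3.64 and 4.50 at CT18, and 3.11 and 2.88 at CT22. Both CT14 libraries lay above the other 10, followed by the CT2 and then the CT18 libraries, of which the nearest were 4.53 and 4.50 CPM. The libraries of CT6, CT10 and CT22 were the lowest and differed little from each other. The CT14 mean was 8.67 ± 0.77 CPM (SD, n = 2), 2.52 times the mean of the other libraries, and the fitted difference was 1.37 ± 0.11 on the log2 scale (SE). Lbp rested on few reads. The 304 counts of the day 2 library at CT14 gave an exact 95% Poisson interval of 8.21 to 10.3 CPM, and the 123 counts of the day 2 library at CT18 gave 3.74 to 5.37 CPM. These intervals cover counting error only. Genes of hepatocytes (Alb, Apoa1, Ttr and Serpina1a) summed to at most 0.0622 CPM in any library, so markers of the best known source of Lbp were at or near 0. The monocyte and macrophage sum was 479 and 623 CPM at CT14, inside the range of the other times (277 to 1192 CPM). The part of either cell type in the Lbp values was not tested.

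Gprasp1 was higher at CT14 as well, by a smaller factor and with little difference between days. Its CPM was 56.7 and 53.9 at CT2, 43.2 and 44.4 at CT6, 50.03 and 48.6 at CT10, 68.4 and 68.1 at CT14, 48.5 and 52.0 at CT18, and 45.6 and 45.8 at CT22. The CT14 libraries stood above all others and the CT2 libraries were the next highest, without overlap with the remaining 8. CT10 and CT18 could not be separated. The mean at CT14 was 68.3 ± 0.21 CPM (SD, n = 2), 1.40 times the mean of the others, with a fitted log2 difference of 0.49 ± 0.04 (SE).

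Parp3 followed the same order of high times with the least change of the 6. In CPM it was 82.3 and 82.6 at CT2, 60.9 and 62.5 at CT6, 68.5 and 66.1 at CT10, 91.3 and 88.1 at CT14, 77.3 and 78.6 at CT18, and 72.5 and 68.7 at CT22. CT14 was highest, CT2 second and CT6 lowest on both days, and CT22 lay just above CT10. The CT14 mean of 89.7 ± 2.28 CPM (SD, n = 2) was 1.25 times the mean of the other times and 1.09 times the CT2 mean. The fitted log2 difference of CT14 from the other times was 0.33 ± 0.04 (SE).

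Lman2l changed at CT14 almost alone. Its CPM was 22.8 and 22.4 at CT2, 17.2 and 20.2 at CT6, 21.3 and 18.7 at CT10, 40.8 and 41.4 at CT14, 22.8 and 24.9 at CT18, and 24.4 and 23.1 at CT22. The other 10 libraries lay between 17.2 and 24.9 CPM, and the values of CT18 and CT22 were interleaved, with CT2 just below them. The CT14 mean of 41.1 ± 0.44 CPM (SD, n = 2) was 1.89 times the mean of the others, with a fitted log2 difference of 0.92 ± 0.07 (SE).

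Slc14a1, at chr18:78100091-78142119 on the minus strand, was the mirror image, with its low point at CT14. The CPM values were 69.0 and 79.2 at CT2, 74.3 and 69.4 at CT6, 78.1 and 66.2 at CT10, 40.5 and 44.7 at CT14, 60.6 and 62.7 at CT18, and 61.7 and 60.4 at CT22. Both CT14 libraries were below the other 10. The libraries of CT2, CT6 and CT10 overlapped at the top, and those of CT18 and CT22 overlapped below them. The CT14 mean of 42.6 ± 3.0 CPM (SD, n = 2) was 0.625 times the mean of the other times, and the fitted log2 difference was -0.67 ± 0.08 (SE). The endothelial sum was 139 and 148 CPM at CT14 against 145 to 184 CPM at the other times, toward the low end. A sum of 6 erythroid genes was 0.498 and 1.36 CPM at CT14 against 0.637 to 3.69 CPM elsewhere. Of these 6, 3 were at or under 3 counts per library on average. The part of either cell type in the Slc14a1 values was not tested.

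Ksr2 had a different shape, with 2 low times 12 h apart. Its CPM was 5.09 and 5.22 at CT2, 10.2 and 11.4 at CT6, 11.2 and 11.1 at CT10, 5.54 and 5.12 at CT14, 6.18 and 7.02 at CT18, and 7.20 and 8.42 at CT22. The 4 libraries of CT2 and CT14 were the lowest and overlapped each other, and the 4 of CT6 and CT10 were the highest. CT18 and CT22 lay between, in that order. The means at CT10 and CT2 were 11.2 ± 0.034 and 5.15 ± 0.093 CPM (SD, n = 2 each), a ratio of 2.16. The fitted log2 difference of CT14 from the mean of the other times was -0.58 ± 0.11 (SE), a value that averages over the low CT2 libraries. Without CT2 it was -0.74.

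**Figure D1:**
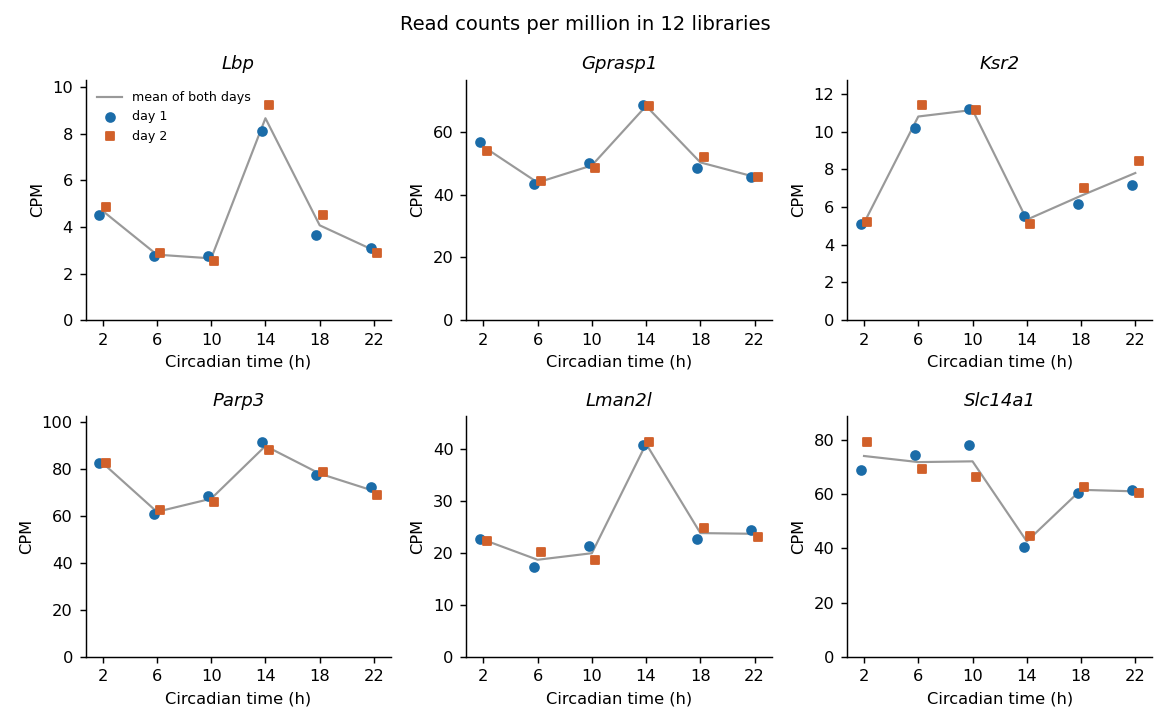
Level in CPM (vertical axis, from 0) by circadian time in h (horizontal axis) for each of the 6 genes, with 1 point per library, circles for day 1, squares for day 2 and a grey line through the means. CT14 stands alone at the top for Lbp, Gprasp1, Parp3 and Lman2l and at the bottom for Slc14a1, while Ksr2 is low at CT2 and CT14.

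The 2 days gave similar curves, which a choice by a test on these replicates favours. For Lbp the CT14 library exceeded the mean of the other times by 1.28 log2 on day 1 and 1.42 on day 2. The same differences were 0.49 and 0.48 for Gprasp1, 0.34 and 0.31 for Parp3, and 0.92 and 0.93 for Lman2l. They were -0.76 and -0.59 for Slc14a1 and -0.46 and -0.69 for Ksr2. On both days CT14 was the highest time for Lbp, Gprasp1, Parp3 and Lman2l and the lowest for Slc14a1. For Ksr2 it was the lowest on day 2 and second lowest on day 1.

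Of the 6 genes, 4 (Lbp, Gprasp1, Ksr2 and Parp3) also passed the test for a 12 h component, which 8 genes (0.0488%) passed in all. That test reads the same counts as the choice of genes and is given as a description. With samples every 4 h, a 12 h wave can be told from a single raised time only by whether times 12 h apart match. Taking the variation among the 6 time means of log2 CPM as the whole, a single raised time would put 40% into a 24 h wave, 40% into a 12 h wave and 20% into an 8 h alternation. The 12 h share was 73.6% for Lbp, 73.0% for Gprasp1, 66.9% for Ksr2 and 66.6% for Parp3, above that of a single raised time. Lman2l had 45.5% at 24 h, 42.7% at 12 h and 11.9% at 8 h, close to a single raised time. Slc14a1 had 57.9%, 17.6% and 24.5%.

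These calls rested on few libraries. So did the calls over all genes, which became fewer in every test when the CT14 library of either day was left out. Without the CT14 library of either day, the 6 genes no longer passed the test of times or the 12 h test. Without the CT10 library of day 2, Lbp, Gprasp1, Ksr2 and Parp3 no longer passed the 12 h test. Each such fit leaves 1 library at that time. With the day as a replicate block, 5 of the 6 passed the test of times (20 genes in all) and 3 the 12 h test (4 in all). In that fit 5 passed the CT14 test, where 64 genes were called higher and 32 lower over all.

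The pairs of times 12 h apart show where these shares come from. In Ksr2, CT14 and CT2 differed by 0.05 log2, but CT18 was 0.71 below CT6 and CT22 was 0.52 below CT10. The repeat was therefore close at the low point and loose at the high point. In Parp3, CT14 exceeded CT2 by 0.12 and CT18 exceeded CT6 by 0.34. In Gprasp1 the matching differences were 0.30 and 0.20, and CT22 was 0.11 below CT10. In Lbp, CT14 exceeded CT2 by 0.87 log2, so that the rise at CT2 was a minor one. In Lman2l and Slc14a1, CT14 differed from CT2 by 0.86 and -0.80 log2, and no second peak or trough was seen at CT2.

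The second readout, TPM, a measure of transcript abundance, divides the estimated reads of a gene by the length of its transcripts and changed this picture for part of the genes. At the mean over libraries Parp3 stood at 39.2 TPM, Slc14a1 at 25.5, Gprasp1 at 20.3, Lman2l at 11.9, Lbp at 2.64 and Ksr2 at 0.693 TPM. Of the tested genes, 79.8% had a lower mean TPM than Parp3 and 17.5% a lower one than Ksr2. In that order the libraries of Slc14a1 (16.3 to 32.1 TPM), Gprasp1 (18.2 to 23.6 TPM) and Lman2l (8.46 to 19.4 TPM) overlapped, whereas Lbp and Ksr2 lay apart from the rest and from each other.

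On the TPM scale the CT14 change of Lbp, Lman2l and Slc14a1 was about as large as in counts. Lbp was 5.48 and 5.6 TPM at CT14 against 1.29 to 3.11 TPM elsewhere, Lman2l 19.2 and 19.4 against 8.46 to 12.6, and Slc14a1 16.3 and 17.1 against 23.98 to 32.1. In Parp3 the CT14 libraries stood at 49.2 and 48.2 TPM against 32.3 to 44.1. The groups did not overlap in these 4 genes or in Gprasp1, which the choice on the same libraries favours. The share of all genes with such a separation on TPM is not given here. Gprasp1 differed little, with 23.6 and 21.8 TPM at CT14 against 18.2 to 20.9, a ratio of 1.15 where counts had given 1.40. On the log2(TPM + 0.1) scale its CT14 difference was 0.20, where counts had given 0.49.

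The minor rise at CT2 was weaker on the TPM scale than in counts. Lbp had 2.02 and 2.01 TPM at CT2, about as at CT10 (2.24 and 1.97) and less than at CT18 (2.53 and 3.11). In Gprasp1 the CT2 libraries (19.7 and 20.5 TPM) did not lie above those of CT10 (20.2 and 20.4) and CT18 (20.7 and 20.2). In Parp3 they were 37.4 and 44.1 TPM, astride the CT18 libraries (42.2 and 41.5). The 12 h share fell to 33.7% in Lbp, 42.2% in Gprasp1 and 55.4% in Parp3, while Ksr2 kept 71.0%. RSEM's expected counts, not divided by length, were also fitted with edgeR. Their 12 h amplitudes were 0.715 log2 for Lbp, 0.232 for Gprasp1 and 0.203 for Parp3, where the counts above gave 0.716, 0.254 and 0.21. Which step weakened the rise on TPM was not tested. Ksr2 stood at 0.37 and 0.46 TPM at CT2 and 0.49 and 0.45 at CT14, against 0.92 to 1.02 TPM at CT6 and CT10. Fitted with limma on log2(TPM + 0.1), 0 of the 6 genes passed the test of times and 0 the 12 h test. Of all 16414 genes in that fit, 29 passed the test of times and 2 the 12 h test. In that fit 3 (Lbp, Lman2l and Slc14a1) passed the CT14 test, with 32 genes called higher and 15 lower at CT14 over all.

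**Figure D2:**
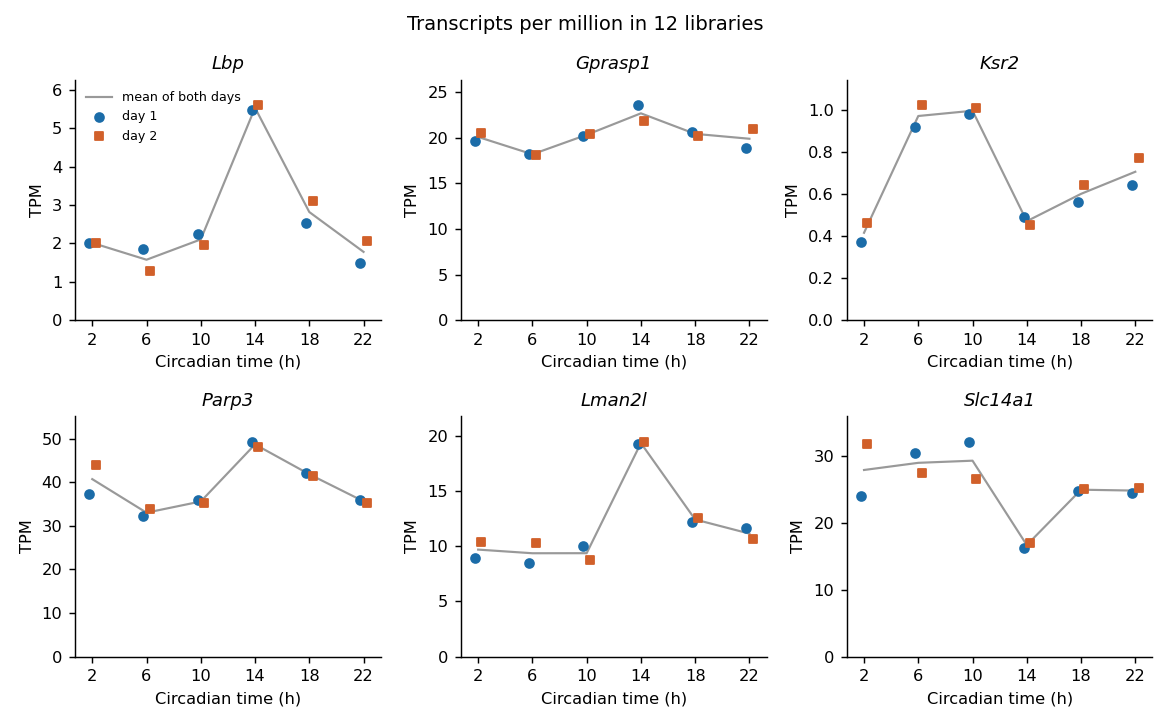
Level in TPM (vertical axis, from 0) by circadian time in h (horizontal axis), drawn as for CPM with 1 point per library and a line through the means. Lbp at CT2 (2.02 and 2.01 TPM) no longer stands above CT10, and Gprasp1 runs nearly flat between 18.2 and 23.6 TPM.

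**Figure D3:**
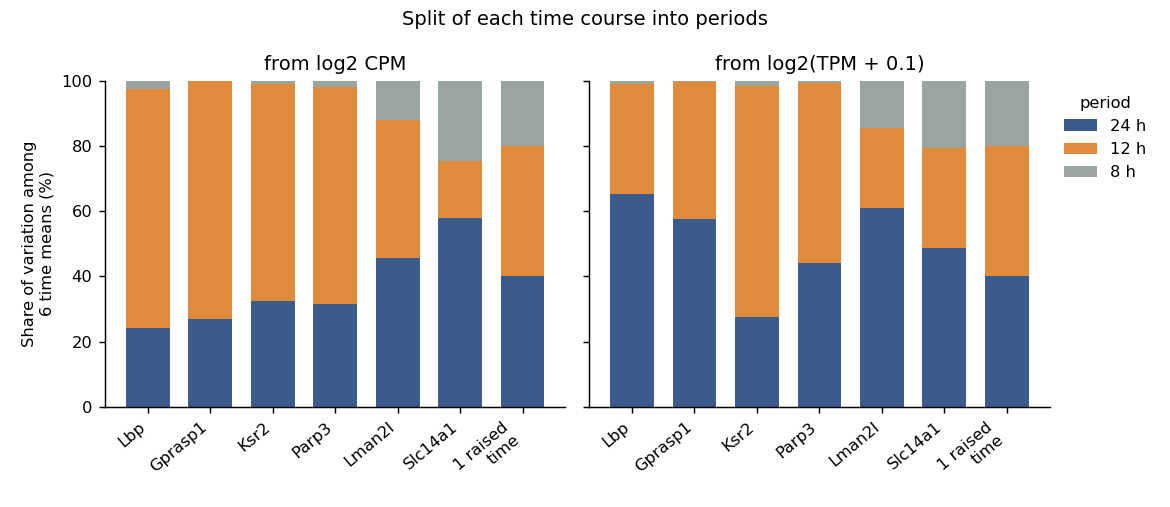
Stacked bars of the share of variation among the 6 time means (vertical axis, %) that falls into waves of 24 h, 12 h and 8 h, for each gene and for a time course in which 1 time alone is raised, from log2 CPM (left) and log2(TPM + 0.1) (right). The 12 h share of Lbp is 73.6% from counts and 33.7% from TPM, and that of Ksr2 is 66.9% and 71.0%.

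RSEM also gives, per gene and library, a transcript length weighted by the abundance of each transcript, which moves when the mix of long and short transcripts moves. The choice of genes did not use this readout. Gprasp1 has 6 annotated transcripts, with 4 coding ones of 4993 to 5843 bases and 2 noncoding ones of 837 and 2361 bases. Its weighted length was 3870 and 4009 bases at CT14 and 3124 to 3498 bases in the other 10 libraries, so the groups did not overlap. Parp3 went the other way, with 2173 and 2115 bases at CT14 against 2199 to 2334 bases. An exact permutation test of F among the 6 times, one-sided and over the 10395 ways to pair the libraries, gave p = 0.0465 for Gprasp1 and p = 0.0377 for Parp3. Adjusted over the 6 genes by the Benjamini-Hochberg method both became p = 0.139 in this exact test, so neither passed. The design leaves little room for a single time that stands apart, since 945 of the 10395 pairings (9.09%) keep the CT14 libraries together.

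Lbp had a variable weighted length, from 1376 to 2434 bases, and the libraries of a time often disagreed. CT2 had 2032 and 2434 bases, CT6 1622 and 2420, and CT14 1636 and 1823. The longest mean, at CT2, is the time at which counts and TPM of Lbp parted most. The exact permutation test gave adjusted p = 0.483 for Lbp, 0.402 for Lman2l, 0.590 for Slc14a1 and 1 for Ksr2. Ksr2 was given its single coding transcript of 13125 bases in 11 libraries and 12802 bases in the other.

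**Figure D4:**
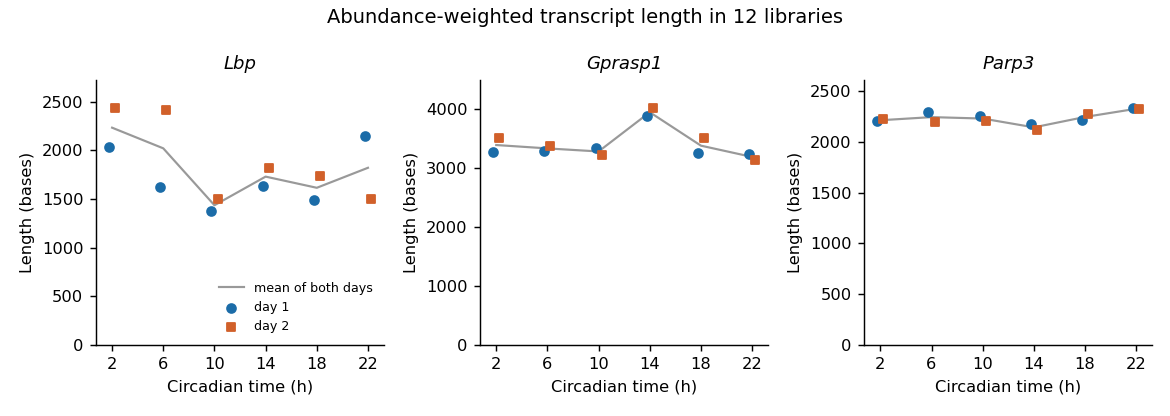
Abundance-weighted transcript length in bases (vertical axis, from 0) by circadian time in h (horizontal axis) for Lbp, Gprasp1 and Parp3, with 1 point per library, circles for day 1 and squares for day 2. The Gprasp1 libraries of CT14 (3870 and 4009 bases) lie above all others and the Parp3 libraries of CT14 (2173 and 2115 bases) below all others.

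The genes next to the 6 were mostly silent or without a change that passed a test. Among the 16 nearest or overlapping protein-coding genes, 8 had enough counts to be tested, and by edgeR 0 of 8 passed the test of times, the CT14 test or the 12 h test. At an unadjusted p under 0.05, 1 of the 8 passed the test of times and 1 the CT14 test (12.7% and 13.2% of all tested genes did), and 0 passed any of the 3 by DESeq2. Over all genes 93 (0.567%) were called higher at CT14 and 93 (0.567%) lower. Armcx5, on the same strand as Gprasp1 and with the same annotated start, was 8.64 and 11.9 CPM at CT14 against 10.0 to 14.3 CPM elsewhere (log2 difference -0.23 ± 0.14 SE, edgeR adjusted p = 0.538). Bhlhb9, which overlaps the other end of Gprasp1 by 5881 bases, had 25.8 and 26.2 CPM against 24.3 to 31.8 (-0.05 ± 0.07, edgeR adjusted p = 0.848). In both the CT14 values lay within or below those of the other times. Gprasp2, the next gene downstream and its close relative, had 1.18 and 1.68 CPM against 0.910 to 1.29 CPM, and its log2 difference of 0.33 ± 0.20 (SE) did not pass (edgeR adjusted p = 0.545).

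Around Parp3, Rrp9, a gene of ribosomal RNA processing on the opposite strand, overlaps its first 987 bases. Rrp9 had 52.4 and 55.4 CPM at CT14 against 42.7 to 53.6 CPM at the other times (log2 difference 0.14 ± 0.06 SE, edgeR adjusted p = 0.368). Gpr62 and Iqcf1, the nearest genes on its sides, were at most 0.156 and 0 CPM. Fer1l5, on the opposite strand and overlapping Lman2l by 2240 bases, reached 0.256 CPM. The further neighbours of Lman2l, Kansl3 and Cnnm4, differed at CT14 by 0.04 ± 0.05 and 0.10 ± 0.08 log2 (SE). Ksr2 lies between Rfc5 (25.9 to 31.5 CPM in the 10 libraries outside CT14, log2 difference -0.02 ± 0.06 SE) and Nos1 (at most 0.639 CPM). The neighbours of Lbp, Bpi and Snhg11, and those of Slc14a1, Siglec15 and Slc14a2, stayed at or under 0.150 CPM, as did Tmsb15a beside Gprasp1. Bpi is the closest relative of Lbp and Slc14a2 that of Slc14a1, so in both pairs of related neighbours the reads were almost all from 1 gene.

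Among the 6 genes, the 4 with a peak at CT14 correlated with each other across the 12 libraries at Pearson r of 0.83 to 0.94. The pair with the highest value was Lbp and Gprasp1 (r = 0.94). Ksr2 ran opposite to Parp3 (r = -0.92) and Slc14a1 opposite to Lman2l (r = -0.90), while Ksr2 and Slc14a1 shared less (r = 0.47). All these points share libraries and times, and the genes were chosen on the time differences, so the values are descriptive.

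Of the 4 genes most like Lman2l, 3 belong to the heat shock system. Over the 12 libraries r of log2 CPM was 0.98 for Stip1, an adaptor between HSP70 and HSP90, 0.98 for Ahsa2, a relative of an HSP90 activator, 0.97 for Hsph1, of the HSP110 family, and 0.96 for Ubxn4, a protein of degradation at the endoplasmic reticulum. Hsph1 averaged 350 CPM at CT14 against 126 at other times, and Stip1 285 against 152 CPM. Nmnat3, an NAD synthesis enzyme, and Ocrl, an inositol phosphatase, ran most opposite (r = -0.97 and -0.94). For Gprasp1 the 4 most alike were Ubxn4 (0.92), Ints13 (0.92), Ahsa1 (0.92), an HSP90 activator, and Fkbp4 (0.91), an HSP90 co-chaperone. The least alike were Atg7 (-0.90) and Phyh (-0.90).

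Lbp was nearest to St13 (r = 0.95), a co-chaperone of HSP70, followed by Gprasp1, Fgfr1op2 (0.94) and Cct3 (0.93), a subunit of a chaperonin. It too ran most opposite to Nmnat3 (-0.92) and Ocrl (-0.91). Parp3 was instead nearest to RNA-binding proteins, Hnrnpm (0.96), Hnrnpa2b1 (0.95) and Rbm10 (0.94), with Bud23 (0.95), a methyltransferase of ribosomal RNA, among them. Baz2b (-0.93) and Phyh (-0.93) ran opposite to it. Ksr2 was nearest to Phka2 (0.95), Cryl1 (0.93), Scfd2 (0.92) and Cul9 (0.92) and most opposite to Psip1 (-0.96) and Hnrnpa2b1 (-0.96). Slc14a1 was nearest to Nt5dc1 (0.98), Trmt6 (0.97), Slc9a9 (0.96) and Phykpl (0.96) and most opposite to Dnajb2 (-0.96), an HSP40 co-chaperone, and Ywhah (-0.96). Each of these is an extreme out of 9653 or 9654 genes.

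The likeness to heat shock genes was visible in a list of 18 of them, which was drawn up with their behaviour in these libraries known and is not independent evidence. By edgeR, 12 of the 18 passed the test of times, 13 were higher at CT14 and 0 lower, with a median CT14 difference of 0.65 log2 against -0.01 over all tested genes. Hspa1b, an inducible HSP70, stood at 16.9 and 22.9 CPM at CT14 against 0.460 to 6.99 CPM elsewhere. Hspa8, the constitutive form, stood at 2083 and 2249 against 1113 to 1718 CPM. Fkbp4 alone of the list passed the 12 h test by edgeR. Before adjustment 15 of the 18 had p under 0.05 in that edgeR test, where 6.09% of all tested genes did. With DESeq2, 11 of the 18 passed the 12 h test after adjustment. Of the 6 genes, Lbp and Lman2l had CT14 differences above the list's median and Gprasp1 and Parp3 below it.

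Among genes that work with each of the 6, no change passed in the edgeR fit that left out genes with low counts. Without that filter, 4 of 14 genes of LPS recognition and 3 of 22 of the PARP list passed a test of times or CT14. The unfiltered fit called 2146 of 29911 genes in the test of times. With the filter, 87 genes of the 6 lists were tested, and by edgeR 0 passed the test of times, the CT14 test or the 12 h test. At an unadjusted p under 0.05, 10 passed the test of times, 9 the CT14 test and 5 the 12 h test, where 12.7%, 13.2% and 6.09% of all tested genes did. By DESeq2 2 of the 87 passed the test of times. Without the CT2 library of day 2, 5 of 13 genes of LPS recognition and 4 of 18 of export from the endoplasmic reticulum passed a test of times or CT14, in a fit that called 1745 genes over all in the test of times. Their CT14 differences ran from -0.42 to 0.33 log2, with a median of -0.0001. The value of each of the 6 genes lay outside the range of its own list, as their choice on this contrast makes likely.

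Of 13 tested genes of LPS recognition, the 2 with the smallest p were Cd180 and Tlr4. Cd180, a TLR4-like receptor, had 26.7 and 27.3 CPM at CT14 against 15.4 to 34.6 CPM elsewhere, and Tlr4, the LPS receptor, 2.40 and 3.0 against 1.03 to 5.54 CPM. Cd14, to which Lbp hands LPS, was at 0.840 and 1.00 CPM at CT14 and 0.451 to 3.03 CPM elsewhere. None of these set CT14 apart. Among 9 genes of the GPRASP and ARMCX family, Armcx2 had 26.3 and 30.8 CPM at CT14 against 27.0 to 32.9 CPM. Among 18 genes from RAF to ERK, Spred1, an inhibitor of RAF activation, had 30.5 and 32.2 against 22.4 to 37.1 CPM, and Map2k1, which encodes MEK1, 78.0 and 83.4 against 67.7 to 79.9 CPM. Ksr1, the relative of Ksr2, had 25.1 and 25.9 CPM at CT14 against 21.1 to 24.9 CPM elsewhere, and its log2 difference of 0.15 ± 0.06 (SE) did not pass (edgeR adjusted p = 0.35).

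Among 22 genes of the PARP family and of DNA end joining, Parp12 had 28.8 and 35.5 CPM at CT14 against 24.98 to 46.4 CPM, and Xrcc4, a partner of DNA ligase IV, 16.0 and 16.2 against 15.8 to 26.2 CPM. Parp1 and Parp2, the main enzymes of the family, differed at CT14 by 0.04 ± 0.05 and -0.06 ± 0.06 log2 (SE). Among 18 genes of L-type lectins and export from the endoplasmic reticulum, Lman1l had 1.58 and 2.05 against 1.21 to 3.08 CPM and Sec23b, a coat protein of export vesicles, 81.7 and 84.0 against 68.9 to 86.8 CPM. Lman1 and Lman2, the other lectins, differed at CT14 by -0.0032 ± 0.05 and 0.06 ± 0.05 log2 (SE). Of 13 genes of urea transport and the urea cycle 7 were tested. Aqp3, a channel for water and glycerol, had 16.2 and 16.3 CPM at CT14 against 13.5 to 20.5 CPM, and Arg2, an arginase, 0.902 and 1.18 against 0.389 to 1.76 CPM.

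Of 19 core clock genes, 0 passed the test of times, the CT14 test or the 12 h test by edgeR, and 0 by DESeq2. At an unadjusted p under 0.05 in edgeR, 4 passed the test of times and 2 the CT14 test, against 12.7% and 13.2% of all tested genes. Per2 had 15.3 and 15.5 CPM at CT14 against 10.3 to 16.2 CPM, and Nr1d1 6.97 and 7.03 against 4.86 to 8.63 CPM. The change at CT14 was in value larger in each of Lbp, Lman2l, Slc14a1 and Ksr2 than in any clock gene. The choice of these genes on the same libraries favours such a difference. The largest clock value, -0.56 ± 0.46 log2 (SE), was that of Npas2, at 0.156 and 0.273 CPM at CT14. Ksr2, at -0.58 ± 0.11 (SE), was hardly beyond it, and Gprasp1 and Parp3 changed less than Npas2.

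**Figure D5:**
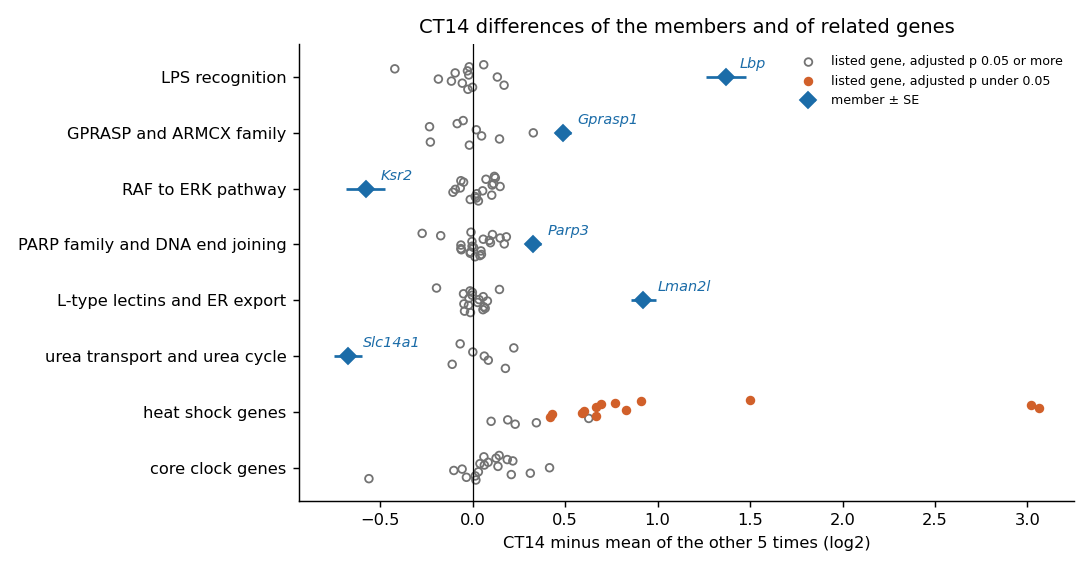
Log2 difference of CT14 from the mean of the other 5 times (horizontal axis) for each tested gene of 8 lists (rows), with open circles for an adjusted p of 0.05 or more and filled circles for an adjusted p under 0.05, and blue diamonds with SE bars for the 6 genes beside their lists. The related genes run from -0.42 to 0.33, the diamonds lie outside the range of their own rows, and 13 of the 18 heat shock genes are filled.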

How the data were processed

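RNA of the 12 libraries was extracted with TriZol and an RNeasy kit and made into polyA libraries with a KAPA RNA HyperPrep kit, per the labels' protocols. The submitters' processing notes name build GRCm38 and, as tools, RSEM 1.2.28, STAR 2.5.1b, Trimmomatic 0.35 and bcl2fastq 2.19. No annotation is given in the sources used here. Raw read counts per gene were deposited by the authors in STAR's layout, unnormalised, with 1 column per treatment of strand. Column 4 was used, because only 11.4% to 13.9% of its fragments fell outside genes, and 77.6% to 80.9% of those in column 3 did. The 4 rows that name no gene held 29.3% to 31.2% of fragments and were left out. The authors also deposited RSEM tables, of which the expected counts (estimated, rounded here), the TPM (abundance per length, with an equal total in every library) and the weighted transcript length were used. Of 50600 identifiers, 50376 matched a symbol in GENCODE M21.

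Counts were fitted with edgeR 4.0.16 in R 4.3.3, with the filter filterByExpr by time, TMM factors and quasi-likelihood F tests over 16396 genes, and Benjamini-Hochberg adjustment with a threshold of 0.05. The tests asked for any difference among 6 times, for a 12 h wave beside the 24 h wave, and for a difference of CT14 from the mean of the other 5 times. All 12 libraries entered each fit, with no block. Alternatives were DESeq2 1.42.0, its size factors, no filter, unstranded counts, expected counts, limma 3.58.1 on log2(TPM + 0.1), the day as a replicate block, leaving out each library or both of CT2, and, chosen after seeing the data, thinning all libraries to 24689964 counts and recomputing the correlations on other units. The fits and the exact test were tested on simulated data. The replicate number is the day of collection in the labels, so it pairs the libraries of a day. Over 10153 genes the day differences correlated between the 15 pairs of times from -0.60 to 0.35 (median 0.08, 6 of 15 above 0.1). The 2 libraries of each time differed by more than counting noise. Chi-square over its degrees of freedom was 40.2 at CT2 and 3.07 to 10.6 at the other times.

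The 6 genes and all lists were chosen with earlier results of these data known. Besides the 6, the text names for each the 4 most and 2 least alike genes by Pearson r of log2 CPM (prior count 2) with a mean of at least 5 CPM, without predicted genes and unnamed loci, genes that passed or had the 2 smallest p in each list, and nearest neighbours. Not all heat shock genes so found are named. Relatives named beyond this (such as Cd14, Ksr1, Parp1, Lman1 and Lman2) and the genes around the threshold were chosen after their values were seen.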

Additional observations from a re-analysis of the deposited data

Results flagged for a closer look

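The column of reads on the strand opposite to each gene was not used in any comparison and held signal above the 36 counts over 12 libraries (3 per library) that a count of 0 allows, in 5 of the 6 genes. Opposite-strand counts made up 2.186% of the counts of both strands for Gprasp1, 2.31% for Ksr2, 2.92% for Parp3, 1.83% for Lman2l and 2.12% for Slc14a1, against a median of 2.74% over all tested genes. Lbp had 18 such counts in all and stayed under that limit. In Parp3, whose first bases overlap Rrp9 on the other strand, the share was 2.46% and 3.23% at CT14 and 2.25% to 4.21% at the other times. In Gprasp1 it was 2.22% and 2.35% at CT14 and 1.54% to 2.95% elsewhere. The CT14 values of both genes lay inside the range of the other times.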

How the results depend on the processing

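No CT14 difference of the 6 genes changed sign under any alternative, while a 12 h amplitude is never negative and cannot do so. Of 246 CT14 differences and 12 h amplitudes, 238 moved by less than the spread between days. The other 8 were Lbp's 12 h amplitude (0.48 on TPM) and the CT14 differences without CT2 of Lbp (1.49), Gprasp1 (0.53), Ksr2 (-0.74) and Parp3 (0.38), with, on TPM, Parp3's CT14 difference (0.39) and Gprasp1's CT14 difference (0.20) and amplitude (0.085). Thinning to equal depth left all 6 past the test of times, which 35 of 16144 genes passed in that fit. Their choice by that test on the same reads makes this likely. The counts of genes over the whole series depended more on the setting, in the order test of times, 12 h, higher and lower at CT14 (42, 8, 93 and 93 as reported). DESeq2 gave 516, 68, 158 and 187, and no filter 2146, 548, 336 and 352. With the day as a replicate block (libraries paired by day) they were 20, 4, 64 (within 1.5 times) and 32. Limma on TPM gave 2 for 12 h, 32 and 15. Without CT2 the test of times called 527, and 273 were higher and 320 lower at CT14. Leaving out 1 library gave 6 to 1745 (without the day 2 libraries of CT14 and CT2), 0 to 93 (CT10 day 2, CT2 day 2), 16 to 332 (CT14 day 2, CT2 day 2) and 1 to 360 (CT14 day 1, CT2 day 1). The CT2 libraries differed from each other more than those of any other time (chi-square over its degrees of freedom 40.2). Whether this moved the counts of genes was not tested. With DESeq2, without a filter, or without 1 or both CT2 libraries, genes of 5 of the 6 related lists passed a test of times or CT14, namely up to 5 of 13 in LPS recognition, 4 of 18 in export from the endoplasmic reticulum, 3 of 22 in the PARP list, 2 of 11 in the urea list and 1 in RAF to ERK, and 0 in the GPRASP list. The count of genes with a changed transcript length was 0 under ranks and without any 1 library. Of 180 recomputed correlations (for single libraries left out, the lowest and highest), 26 moved by 0.1 or more and 0 changed sign, and Gprasp1 with Atg7 (-0.24) and Ksr2 with Psip1 (-0.21) fell most on TPM. Depth limits Lbp and Ksr2, with 63 to 316 counts per library.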
